A study of Mus musculus with 3 samples.

Results

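The 47 gene symbols counted here encode caspases, Bcl-2 family proteins, inhibitor of apoptosis proteins, p53 with its partners Mdm2 and Mdm4, and the Fas receptor with its adaptor. They were chosen by a set of symbols and symbol stems, which leaves out some relatives such as *Bik*, *Bmf*, and *Hrk*, and they are 47 of the 30854 symbols measured. RNA came from the embryonic region of wild-type mouse embryos at the early headfold stage, cut away from the extraembryonic part, and was hybridized to 3 Illumina Mouse-6 arrays. The arrays, replicates 1, 2, and 3, form a single group without a treatment, an engineered allele, or a second stage. The labels give the strain as Cd-1 and the methods name ICR mice, and the design text names 3 samples in a well, so that it is not clear whether an array holds 1 embryo or a pool. The p-values therefore measure the spread between these arrays, which may be partly technical.

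Apoptosis removes cells through caspases, proteases that are made as inactive precursors. In the mitochondrial route, BH3-only proteins relieve anti-apoptotic Bcl-2 proteins of their hold on Bax and Bak, the outer membrane opens, and released cytochrome c assembles Apaf1 and caspase-9 into the apoptosome. The transcription factor p53, held low by Mdm2 and Mdm4, turns on several of these genes after DNA damage, and epiblast cells around gastrulation are known to be unusually prone to p53-dependent death. Messenger RNA of these genes is not a measure of death, since most of the pathway is controlled by protein cleavage and stability.

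Each symbol has a log2 signal, a bead number, and, per array, a detection p, which for a single probe is the share of negative-control probes at least as bright. Background was set, for every array, at the dimmest log2 signal among symbols with 1 probe whose detection p was under 0.01 but not 0. It was 6.69, 6.66, and 6.58 on replicates 1, 2, and 3. A gene's level is given as its log2 signal minus that of the background on the same array, so that 1 unit is a doubling of signal. Because probes differ in how well they hybridize, genes were compared with background and not with each other. The RNA is from whole tissue, so fewer cells that express a gene and less RNA per cell cannot be told apart.

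Markers of the tissue were checked first. Detection on all 3 arrays, at p under 0.01, was seen for 8 of 11 markers of the embryonic region, 13 of 14 of visceral endoderm, 5 of 10 of extraembryonic ectoderm, and 0 of 4 of primitive blood. The detected visceral endoderm markers reached median log2 signals of 8.82, 9.31, and 8.42, with replicate 2 the highest. For extraembryonic ectoderm, the detected markers were *Cdx2*, *Bmp4*, *Rhox5*, *Tfap2c*, and *Ets2*. *Elf5*, *Eomes*, *Ascl2*, *Gcm1*, and *Esrrb* were neither detected on all 3 arrays nor called above background. The RNA thus held transcripts of most genes listed for visceral endoderm and of only some listed for extraembryonic ectoderm, beside those of the embryonic region. Which cells these transcripts came from, and the part of such cells in the levels below, was not tested.

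In the test of level below, about as many members were called above background as were not. By the detection p, 14 of 47 members (29.8%) passed 0.01 on all 3 arrays, against 20.6% of all symbols. The level lay above background in the one-sided test of limma, with Benjamini-Hochberg adjustment over all 30854 symbols and a threshold of 0.05, for 24 members (51.1%), against 23.4% of all symbols. These 24 include all 14 detected members, and their mean levels reached 3.85 with a median of 0.96, beside a median of 1.19 over all symbols called, which describes different probes and ranks no genes. By signal alone, 26 members (55.3%) lay above background on all 3 arrays, against 26.3% of all symbols. Several probes were found for 33 of the 47 members but for 8866 of all 30854 symbols. Neither these shares nor those of the gene lists below were matched for the number of probes. The 23 members not called by limma had log2 signals between 6.32 and 7.17. Of these 23, 18 lay below the background level on each array.

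**Figure D1:**
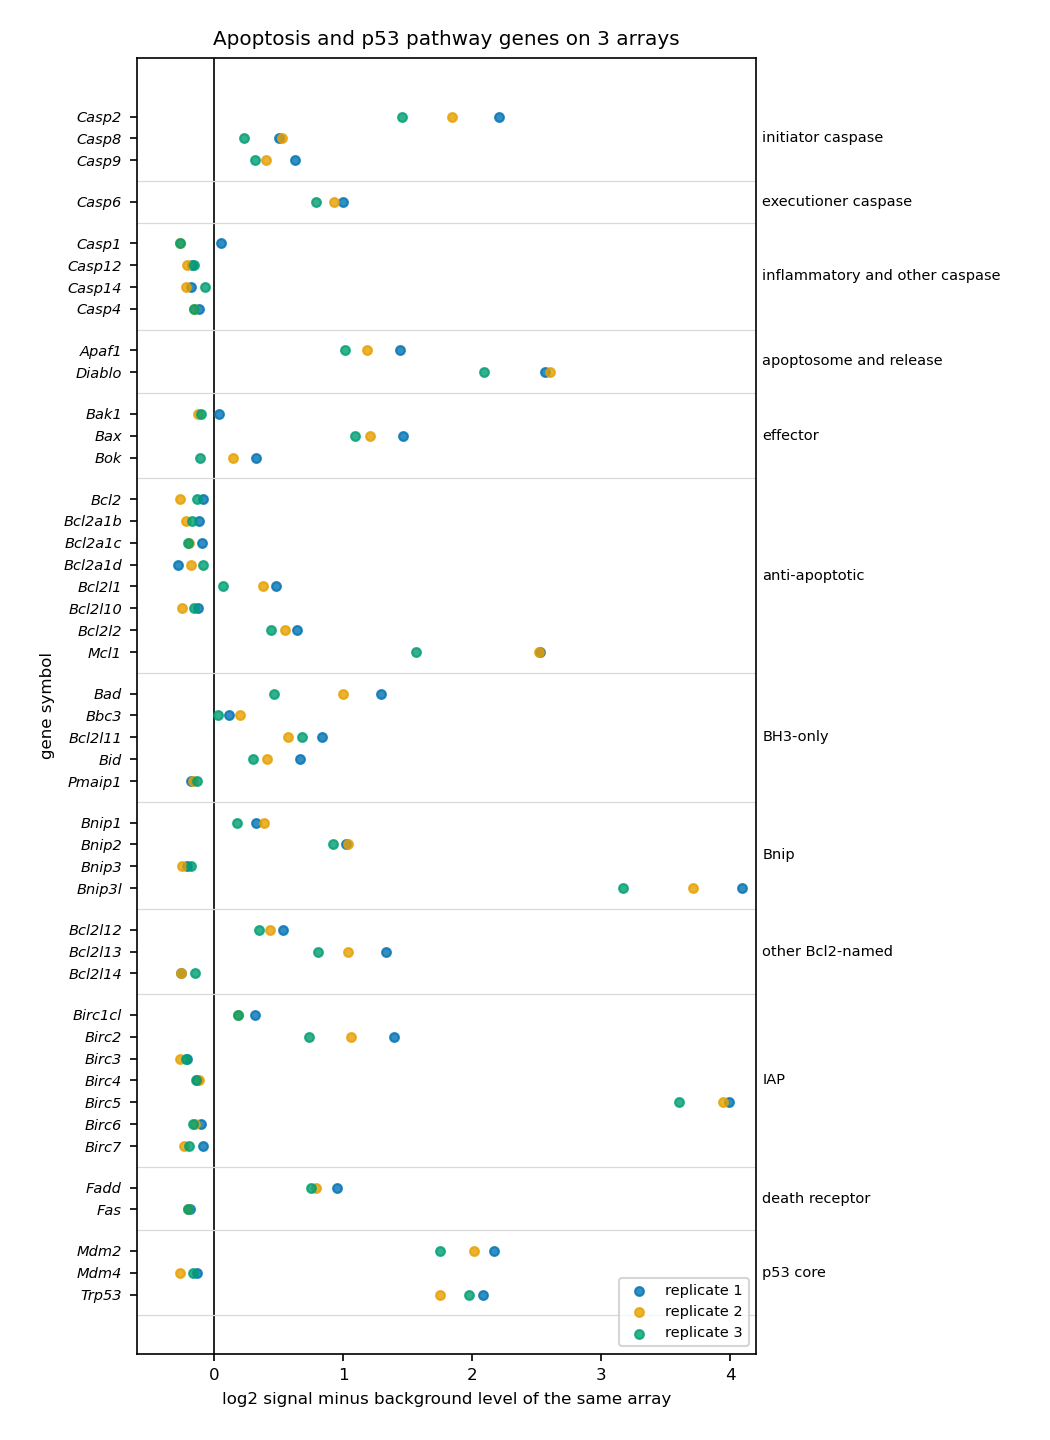
Level of 45 members on the 3 arrays, as log2 signal minus the background level of the same array (horizontal axis), with symbols grouped by role and each point standing for 1 array. Points right of the line at 0 are above background. *Birc5* lies between 3.60 and 3.99, whereas *Fas*, *Bcl2*, and *Bnip3* lie left of the line on every array.

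All 3 initiator caspases were called above background, 1 of them with each replicate left out in turn, and none of the inflammatory ones was called. *Casp2*, whose product is an initiator linked to DNA damage and mitotic errors, gave 8.90 on replicate 1, 8.50 on replicate 2, and 8.04 on replicate 3 in log2 signal, the order used for all genes here. Each array was well above its background, by 1.84 on average (SE 0.15, n = 3, adjusted p = 0.000872 by limma). *Casp8*, the initiator of the death receptor route, had signals of 7.19, 7.18, and 6.81, with replicate 3 the lowest. Its level was 0.42 (SE 0.07, n = 3, limma adjusted p = 0.00953). *Casp9*, the caspase of the apoptosome, had signals of 7.31, 7.06, and 6.90 and a level of 0.45 (SE 0.07, n = 3, limma adjusted p = 0.00718), yet its detection p of 0.136, 0.0332, and 0.0456 passed 0.01 on no array. The call was lost for *Casp8* without replicate 1 (level 0.38, limma adjusted p = 0.0522) or replicate 2 (level 0.37, limma adjusted p = 0.0789), and for *Casp9* without replicate 2 (level 0.47, limma adjusted p = 0.0577).

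*Casp6*, whose product is an executioner caspase, had log2 signals of 7.69, 7.59, and 7.37, all above background. Its level was 0.91 (SE 0.05, n = 3, limma adjusted p = 0.000275), and its detection p passed on every array.

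Of the other caspases, *Casp4* and *Casp12* (inflammatory) and *Casp14* (epidermal differentiation) were below background on every array, with log2 signals from 6.42 to 6.57. *Casp1*, which activates interleukin-1 beta, was detected on replicate 1 alone, with a signal of 6.75 there against 6.39 and 6.32 on replicates 2 and 3. Its mean was below background.

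The promoters of *Casp2* and *Casp1* are printed because they show a sequence feature that differed between members above background and the others, the number of CpG dinucleotides. Each covers 250 bases before and 50 bases after the annotated start of the gene in RefSeq (GRCm38.p6), 5′ to 3′ on the strand of the gene, with each CpG in capitals. *Casp2* (chr6:42264735-42265034, plus strand) holds 26 and *Casp1* (chr9:5298267-5298566, plus strand) holds 3.
Casp2: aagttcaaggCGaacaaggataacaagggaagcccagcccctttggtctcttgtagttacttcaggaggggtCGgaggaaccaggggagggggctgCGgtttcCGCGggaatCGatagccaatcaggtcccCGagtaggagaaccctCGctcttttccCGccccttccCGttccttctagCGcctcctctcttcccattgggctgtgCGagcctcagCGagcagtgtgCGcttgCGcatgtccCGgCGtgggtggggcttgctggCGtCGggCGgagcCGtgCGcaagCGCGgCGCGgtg
Casp1: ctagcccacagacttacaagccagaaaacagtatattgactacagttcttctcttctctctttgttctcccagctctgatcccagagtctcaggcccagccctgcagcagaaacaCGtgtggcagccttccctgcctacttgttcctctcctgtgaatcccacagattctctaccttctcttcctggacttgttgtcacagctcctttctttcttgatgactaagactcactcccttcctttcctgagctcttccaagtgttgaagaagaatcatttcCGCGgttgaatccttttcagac

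RefSeq promoters of this length were matched for 41 members, and for genes with several starts the counts were averaged. The 21 members called above background had a median of 26 CpG, from 5 (*Casp8*) to 46 (*Apaf1*). The 20 members not called had a median of 8, from 3 to 44 (*Bcl2*), so the ranges overlapped. Counts of 10 or fewer were found for 3 of the 21 and 12 of the 20. The same difference ran through the whole table, where the median was 22 over 4052 symbols called and 10 over 8674 not called, and 10.7% and 51.6% of them had 10 or fewer.

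**Figure D2:**
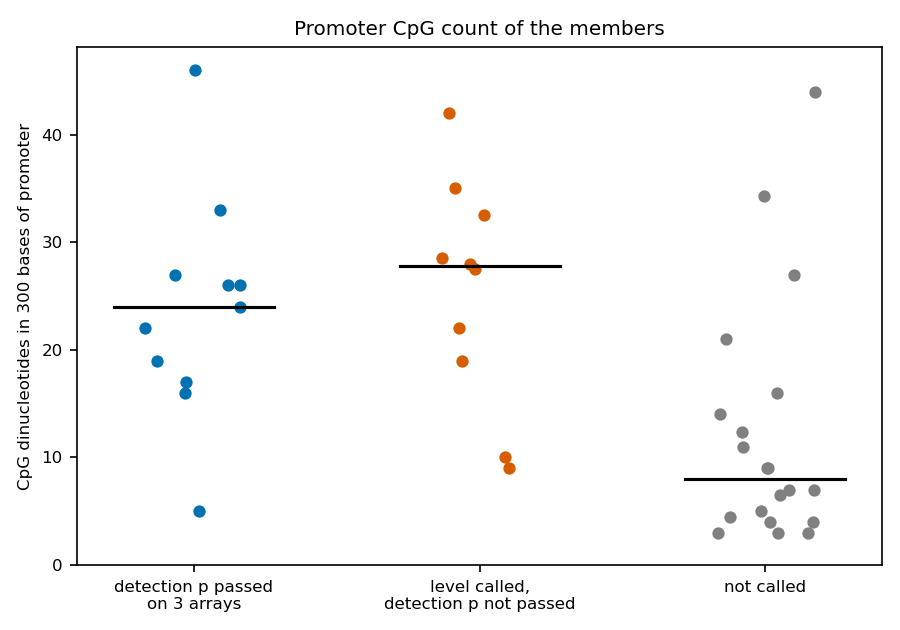
CpG dinucleotides in 300 bases of promoter (vertical axis) for 41 members, split by whether the detection p passed on 3 arrays, the level alone was called, or neither. Points are genes, spread sideways for visibility, and bars are medians, at 24, 27.8, and 8.

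*Apaf1* and *Diablo*, which act around the release of mitochondrial proteins, were both above background. The former, the scaffold on which caspase-9 is activated, had log2 signals of 8.13, 7.85, and 7.60 and a level of 1.22 (SE 0.09, n = 3, limma adjusted p = 0.000613). The latter, a mitochondrial protein that neutralizes inhibitors of apoptosis, had signals of 9.25, 9.26, and 8.67 and a level of 2.42 (SE 0.12, n = 3, limma adjusted p = 0.000172). Its detection p of 0.433, 0.0497, and 0.239 nevertheless passed on no array.

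Of the pore-forming effectors, *Bax* alone was called. Its log2 signals were 8.15, 7.86, and 7.67, each well above background, with a level of 1.25 (SE 0.08, n = 3, limma adjusted p = 0.000403). *Bak1*, its close functional partner, gave 6.73, 6.54, and 6.48 and was detected on replicate 1 only. *Bok* gave 7.01, 6.80, and 6.47, above background on replicates 1 and 2 and below it on replicate 3, and was not called (level 0.12, SE 0.09, n = 3, limma adjusted p = 0.476).

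Of the 8 anti-apoptotic symbols, *Mcl1* and *Bcl2l2* were called. *Mcl1*, a short-lived protein required in early embryos, had log2 signals of 9.21, 9.18, and 8.14, with replicate 3 far below the others. Its level was 2.20 (SE 0.22, n = 3, limma adjusted p = 0.00165). *Bcl2l2*, which encodes Bcl-w, had signals of 7.33, 7.20, and 7.02 and a level of 0.54 (SE 0.05, n = 3, limma adjusted p = 0.00117). Its detection p of 0.023, 0.132, and 0.0103 passed 0.01 on no array. *Bcl2l1*, which encodes Bcl-xL, gave 7.17, 7.04, and 6.65, above background on each array, but missed the threshold of limma (level 0.31, SE 0.09, n = 3, adjusted p = 0.0528). Its detection p was 1.21e-05, 0.00139, and 0.0501, so it passed 0.01 on replicates 1 and 2, unlike that of *Bcl2l2*.

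*Bcl2* itself, the founding member of the family, had log2 signals of 6.61, 6.39, and 6.45, below background on every array. The same held for *Bcl2l10* and for *Bcl2a1b*, *Bcl2a1c*, and *Bcl2a1d*, near-identical copies of a gene of blood cells whose probes may share transcripts. Signals of these 4 symbols ran from 6.38 to 6.59.

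Of the 5 BH3-only genes, which sense damage and start the mitochondrial route, 3 were called. *Bad*, which links growth factor signals to the Bcl-2 proteins, had log2 signals of 7.98, 7.66, and 7.04, above background throughout but with a wide spread. Its level was 0.92 (SE 0.17, n = 3, limma adjusted p = 0.0127). *Bid*, which is cleaved by caspase-8, gave 7.35, 7.07, and 6.88 and a level of 0.46 (SE 0.08, n = 3, limma adjusted p = 0.0104). *Bcl2l11*, which encodes Bim, gave 7.52, 7.23, and 7.26 and a level of 0.69 (SE 0.06, n = 3, limma adjusted p = 0.00102). Without replicate 2 the calls of *Bad* (level 0.88) and *Bid* (level 0.48) were lost.

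The BH3-only genes best known as p53 targets were at or near background. *Bbc3*, which encodes Puma, had log2 signals of 6.81, 6.86, and 6.61, slightly above background on each array and not called (level 0.12, SE 0.05, n = 3, limma adjusted p = 0.111). Its detection p of 0.0609, 0.00724, and 0.000546 passed 0.01 on replicates 2 and 3. *Pmaip1*, which encodes Noxa, gave 6.51, 6.49, and 6.45, below background on all 3, and its detection p passed on none.

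The Bnip genes, whose products bind Bcl-2 proteins, differed from each other in their calls. *Bnip3l*, a receptor for mitophagy, had log2 signals of 10.78, 10.37, and 9.75 and a level of 3.66 (SE 0.19, n = 3, limma adjusted p = 0.000201). *Bnip3*, its relative that is induced by hypoxia, gave 6.48, 6.41, and 6.40, below background on each array. *Bnip1* had a level of 0.30 (SE 0.05, n = 3, limma adjusted p = 0.0105) and lost its call without replicate 1 (level 0.28) or replicate 2 (level 0.25). *Bnip2* had a level of 1.00 (SE 0.04, n = 3, limma adjusted p = 0.000107), though its detection p passed on no array. Among the other symbols named after Bcl-2, *Bcl2l13*, also a mitophagy receptor, was detected with signals of 8.02, 7.69, and 7.39. *Bcl2l12* was called with signals of 7.22, 7.09, and 6.93, and *Bcl2l14* was below background, between 6.40 and 6.43.

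Of 7 symbols of the inhibitor of apoptosis family, 3 were called. *Birc5* encodes survivin, which acts in the chromosomal passenger complex at mitosis and is high in dividing cells. Its log2 signals were 10.68, 10.60, and 10.18, with a detection p of 0 on every array, and its level was 3.85 (SE 0.09, n = 3, limma adjusted p = 3.43e-05). *Birc2*, which encodes the ubiquitin ligase cIAP1, had signals of 8.08, 7.72, and 7.31 and a level of 1.06 (SE 0.14, n = 3, limma adjusted p = 0.00353). The symbol *Birc1cl*, which RefSeq does not list and whose probe may not separate copies of the *Naip* family, had a level of 0.23 (SE 0.04, n = 3, limma adjusted p = 0.0118) and lost its call without replicate 2 (level 0.25).

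The other inhibitors were below background on each array. They are *Birc3* (cIAP2), *Birc4* (an older symbol of *Xiap*, the inhibitor that binds active caspases directly), *Birc6*, and *Birc7*, with log2 signals from 6.36 to 6.60.

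In the death receptor route, the adaptor was called and the receptor was not. *Fadd* had log2 signals of 7.64, 7.44, and 7.33 and a level of 0.83 (SE 0.05, n = 3, limma adjusted p = 0.000375). *Fas* gave 6.50, 6.45, and 6.38, with a detection p of 0.602, 0.548, and 0.498, and lay below background by signal on each array.

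*Trp53* and *Mdm2* were far above background by signal and *Mdm4* was below it. *Trp53*, which encodes p53, had log2 signals of 8.77, 8.41, and 8.56, with replicate 2 the lowest, and a level of 1.94 (SE 0.07, n = 3, limma adjusted p = 9.53e-05). *Mdm2*, the ubiquitin ligase that degrades p53 and is itself a p53 target, gave 8.86, 8.67, and 8.33 and a level of 1.98 (SE 0.09, n = 3, limma adjusted p = 0.000146). Yet each met the detection p on replicate 2 alone, with values of 0.0107, 0.000242, and 0.168 for *Trp53* and 0.166, 0.00102, and 0.0466 for *Mdm2*. *Mdm4*, which blocks the activity of p53, gave 6.56, 6.39, and 6.42.

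A detection p and a signal that disagree were found for 10 members, *Bcl2l11*, *Bcl2l12*, *Bcl2l2*, *Bid*, *Birc2*, *Bnip2*, *Casp9*, *Diablo*, *Mdm2*, and *Trp53*. They are 41.7% of the 24 members called by limma, against 21.8% of all symbols called, and each has several probes whose signals and p-values had been merged. Several probes were found for 33 of the 47 members but for 8866 of all 30854 symbols, so these shares differ in make-up. The merged p of 2 or 3 probes followed the distribution of a sum of p-values, so that this sum could be recovered for 7 of the 10. For *Diablo* the mean detection p of its 2 probes was 0.465, 0.158, and 0.346, so at least 1 probe was no brighter than many negative controls. The mean of the 2 signals lay 2.09 to 2.60 above background, so at least 1 probe was above it on every array.

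The 3 probes of *Trp53* had a mean detection p of 0.134, 0.0377, and 0.334, those of *Mdm2* of 0.333, 0.0609, and 0.218, and those of *Bnip2* of 0.493, 0.298, and 0.275. In all 7 the mean over probes passed 0.1 on at least 1 array while the mean signal stayed above background on all 3. Probes of these genes thus differed in signal, and which exons or isoforms they read is not given in the sources used here.

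**Figure D3:**
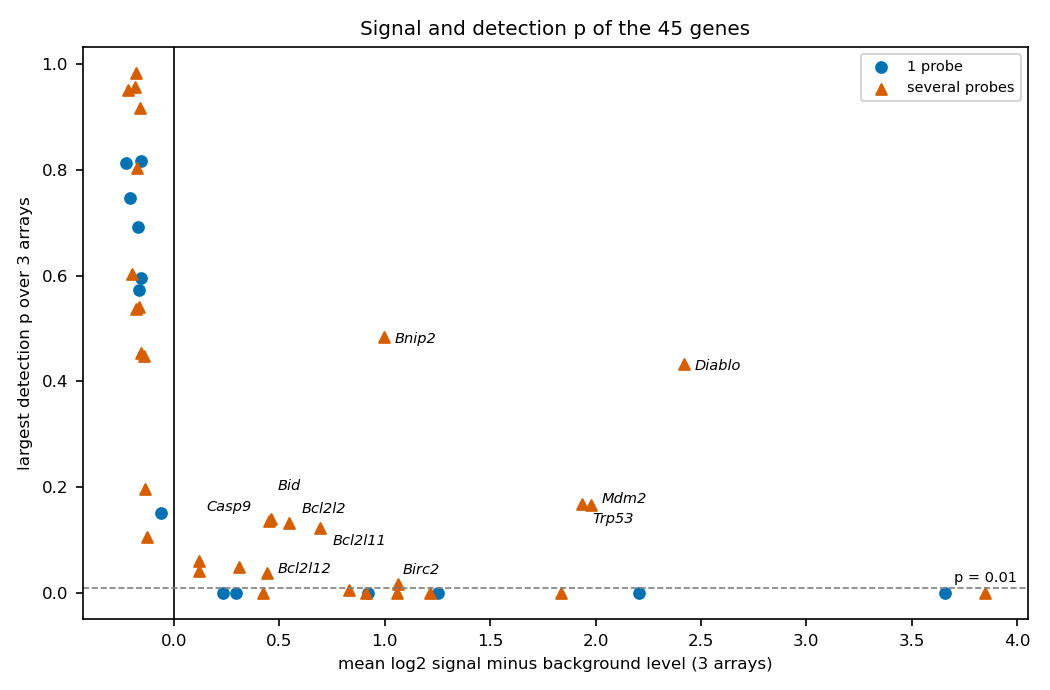
Mean log2 signal minus background level over 3 arrays (horizontal axis) against the largest detection p over the arrays (vertical axis) for 45 members, with circles for 1 probe and triangles for several. The 10 named symbols have a level called by limma and a largest detection p above the dashed line at 0.01, and all are triangles.

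The promoters of *Mdm2* and *Bax*, classical p53 targets, are printed with the p53 half-site consensus in capitals, searched on both strands, which are equivalent for this palindromic consensus. It begins at position -186 from the annotated start in *Mdm2* (chr10:117710709-117711008, minus strand) and at -201 in *Bax* (chr7:45466849-45467148, minus strand), in RefSeq windows as above.
Mdm2: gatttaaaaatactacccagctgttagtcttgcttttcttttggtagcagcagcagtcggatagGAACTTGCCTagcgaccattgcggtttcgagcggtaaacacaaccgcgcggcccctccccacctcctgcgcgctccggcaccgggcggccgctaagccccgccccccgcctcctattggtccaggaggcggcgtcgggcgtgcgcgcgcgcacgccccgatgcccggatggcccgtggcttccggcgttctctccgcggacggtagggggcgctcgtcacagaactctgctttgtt
Bax: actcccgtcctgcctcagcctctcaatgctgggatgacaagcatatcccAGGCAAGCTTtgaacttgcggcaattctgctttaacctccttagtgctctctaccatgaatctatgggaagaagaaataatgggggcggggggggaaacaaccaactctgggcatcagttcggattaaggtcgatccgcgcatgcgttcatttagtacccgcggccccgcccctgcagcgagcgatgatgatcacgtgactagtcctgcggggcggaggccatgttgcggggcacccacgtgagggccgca

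The half-site was found in 5 of 41 members (12.2%), *Bax*, *Birc2*, *Birc5*, *Mdm2*, and *Trp53*, and in 8.36% of all 32851 promoters in the table. None was found in the windows of *Bbc3*, named above as a p53 target. A member was counted if any of its starts held the site, whereas the 8.36% is per promoter, so these shares differ in unit. A match is a description of the sequence and not evidence of binding, and p53 sites outside these windows were not searched.

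Further genes of the p53 pathway were examined as a list of 55 targets and regulators that are not members. Of these, 18 were detected on all 3 arrays (32.7%) and 23 were called by limma (41.8%), against the 20.6% and 23.4% of all symbols. Values are given for the 6 genes of the list with the highest t statistic of limma.

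In this list, *Siva1*, which promotes death through receptors, had log2 signals of 11.57, 11.36, and 10.83 and a level of 4.61 (SE 0.13, n = 3, limma adjusted p = 4.95e-05). *Gadd45g*, a stress-induced gene, gave 7.99, 7.99, and 7.69, with replicate 3 the lowest, and a level of 1.25 (SE 0.06, n = 3, limma adjusted p = 0.000151). *Ckap2*, which encodes a spindle protein, gave 8.07, 7.95, and 7.85 and a level of 1.32 (SE 0.04, n = 3, limma adjusted p = 5.07e-05). *Cdkn1a* (p21, a cell cycle inhibitor), *Ccng1*, *Gadd45a*, *Zmat3*, *Phlda3*, *Ei24*, *Ddit4*, and *Dram1* were detected too.

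Among the regulators, *Trp53bp1*, which acts in DNA break repair, had log2 signals of 9.76, 9.49, and 9.19 and a level of 2.84 (SE 0.10, n = 3, limma adjusted p = 7.08e-05). *Usp7*, which removes ubiquitin from p53 and Mdm2, gave 8.99, 8.56, and 8.38 and a level of 2.00 (SE 0.11, n = 3, limma adjusted p = 0.00024). Both were highest on replicate 1 and lowest on replicate 3. *Ep300*, an acetyltransferase of p53, gave 8.32, 8.06, and 7.97 and a level of 1.47 (SE 0.06, n = 3, limma adjusted p = 0.000125), although its detection p passed on no array. The kinases *Atm*, *Atr*, and *Chek2* and the genes *Cop1* and *Trp53bp2* were detected, the last without a call by limma. *Chek1*, *Perp*, *Btg2*, *Ccng2*, *Sesn2*, *Cdkn2a*, and the p53 relatives *Trp63* and *Trp73* were among those neither detected on all 3 arrays nor called.

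A second list held other genes of the death machinery. Of its 48 genes, 46 were measured beside the members, 22 were detected on all 3 arrays (47.8%), and 25 were called by limma (54.3%), again beside 20.6% and 23.4% of all symbols. *Cycs*, which encodes cytochrome c, had log2 signals of 9.44, 9.15, and 8.86 and a level of 2.51 (SE 0.10, n = 3, limma adjusted p = 0.000101). *Vdac1*, a channel of the outer mitochondrial membrane, gave 11.14, 11.05, and 10.44 and a level of 4.24 (SE 0.13, n = 3, limma adjusted p = 6.1e-05). *Parp1*, a DNA repair enzyme cut by executioner caspases, gave 11.07, 10.97, and 10.61 and a level of 4.24 (SE 0.08, n = 3, limma adjusted p = 2.41e-05). Each lay far above background on every array.

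*Bag1*, a co-chaperone that binds Bcl-2, had log2 signals of 11.99, 11.50, and 11.23 and a level of 4.93 (SE 0.14, n = 3, limma adjusted p = 4.61e-05). *Tmbim6*, an inhibitor of Bax-induced death in the endoplasmic reticulum, gave 11.01, 10.65, and 10.60 and a level of 4.11 (SE 0.08, n = 3, limma adjusted p = 2.45e-05). *Ywhab*, a 14-3-3 protein that can hold phosphorylated Bad in the cytoplasm, gave 9.92, 9.69, and 9.31 and a level of 3.00 (SE 0.11, n = 3, limma adjusted p = 8.03e-05). All were highest on replicate 1 and lowest on replicate 3.

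*Vdac2*, *Htra2*, *Pdcd5*, *Pdcd6ip*, *Pdcd10*, *Bag3*, *Bag6*, *Hax1*, *Rock1*, *Xkr8*, *Anxa5*, *Ripk1*, and the BH3-only gene *Bik* were detected and called. *Bmf*, *Tnfrsf1a*, and *Acin1* were detected without a call by limma. The death ligands *Fasl*, *Tnf*, *Tnfsf10*, and *Tnfsf12*, the caspase-8 inhibitor *Cflar*, and the adaptor *Tradd* were detected on no array and not called.

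Members varied between arrays as other genes did. The median SD over the 3 arrays was 0.25 for the 14 detected members and 0.25 for all 6357 detected symbols, and all 14 were lowest on replicate 3, as were 93.4% of all detected symbols. After centring each array on its median, replicate 3 lay below the mean of the others by a median of -0.26 for the members and -0.26 for all detected symbols. Detected symbols were thus dimmer on replicate 3 in general, beyond the fall of the array median (6.57, 6.51, and 6.42 on replicates 1, 2, and 3). Of the 14 members, 7 lay below the median difference of all detected symbols.

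*Mcl1* showed the widest spread of the detected members. After centring, its difference on replicate 3 was -0.93, and 1.79% of all detected symbols lay as low or lower. It was -0.64 after normexp and quantile normalization, where 3.74% of all detected symbols lay as low or lower. Their median there was 0.03, and *Bad* lay at -0.66. *Bnip3l*, *Bad*, and *Casp2* followed, at -0.71, -0.66, and -0.54 after centring. After normexp and quantile normalization *Bnip3l* lay at -0.29 and *Casp2* at -0.21. *Birc1cl* was near 0, at -0.04. With 3 arrays of 1 group, no difference between arrays was tested.

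**Figure D4:**
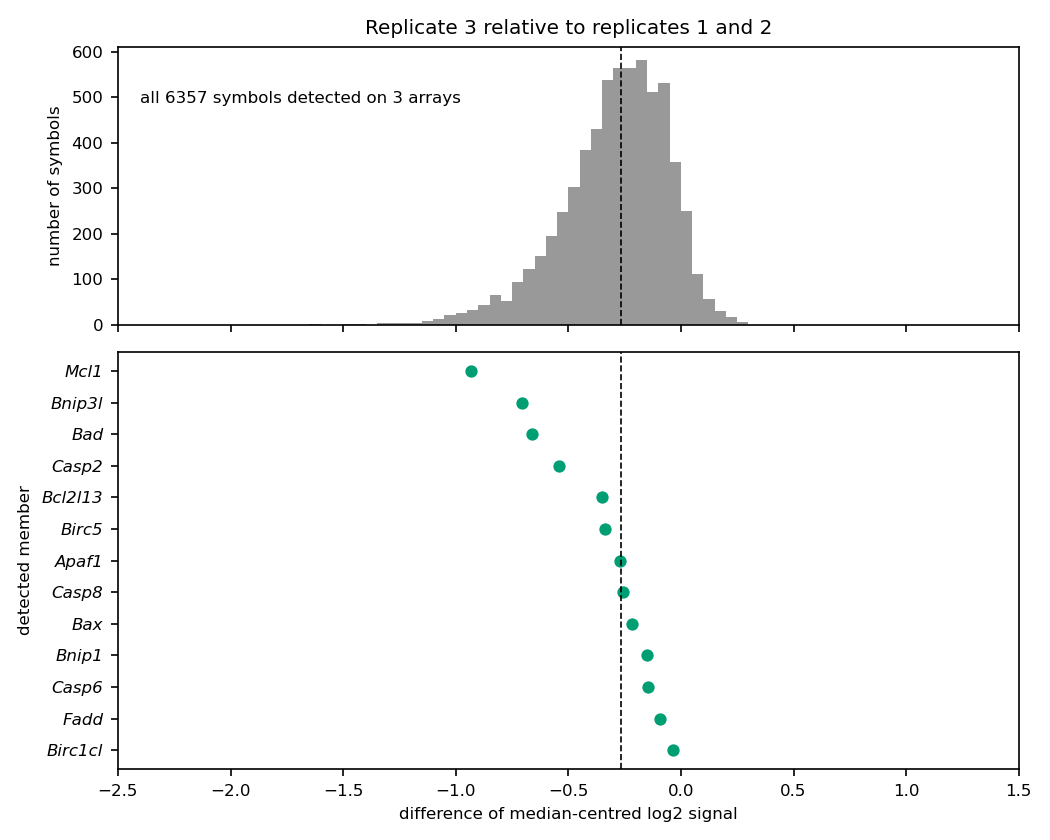
Difference of replicate 3 from the mean of replicates 1 and 2 in log2 signal centred on the median of each array (horizontal axis), as a histogram over all 6357 detected symbols (top, vertical axis in symbols) and as points for 13 detected members (bottom). The dashed line is the median of all detected symbols, -0.26, and *Mcl1* lies farthest left at -0.93.

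Members were read from 29 to 57 beads per array, averaged over probes. For the 7 detected members with 1 probe, the standard error over beads was between 0.05 and 0.16 on the log2 scale, taking the deposited standard errors as linear signals. The SD between arrays exceeded the largest bead error of the gene in all 7 as deposited and in 5 after centring.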

How the data were processed

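The data are 3 Illumina Mouse-6 arrays of embryonic regions, in 1 group. The authors deposited, per gene symbol, log2 signals that were not normalized between arrays. A detection p-value, a mean bead number, and a standard error over beads on the linear intensity scale were deposited by the authors as well. Partek was used per the labels, and its settings are not given in the sources used here.

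Members were found by their symbols. The members and gene lists were chosen with earlier results of these data known. All members were to be named. Of the lists, every detected gene was to be named, with values for the 6 with the highest limma t. The genes of the lists named as not called were chosen after their values were seen.

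A symbol was taken to have 1 probe (21986 symbols) where its bead numbers were whole and its detection p was a multiple of 1 in 936 on all arrays, within 0.002 steps. A p of 0 lies on such steps for any number of probes. For 2 or 3 probes, the sum of p-values was recovered, within 0.02 steps, for 97.6% of 7092 symbols.

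The level above background was tested with limma (lmFit with an intercept, eBayes, one-sided) over all 30854 symbols, with Benjamini-Hochberg adjustment, and the script was tested on simulated data. No normalization preceded this test, because after a quantile step any shift of the background levels would be shared by all genes. Alternatives were other thresholds, normalizations (normexp with an offset of 16 or 50, quantile), background levels, and leaving out each replicate. Counting signals above background on all arrays was added after seeing the data, as was leaving out replicates for the SD. The number of arrays limits the precision. Promoters are those of RefSeq (GRCm38.p6). *Bcl2l10*, *Birc1cl*, *Bnip3l*, and *Pmaip1* were among those not matched there. Counts are over all 47 members, of which 2 are not reported by name or drawn here. R 4.3.3, limma 3.58.1, Python 3.11.15, numpy 2.4.6, pandas 2.3.3, and scipy 1.17.1 were used.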

Additional observations from a re-analysis of the deposited data

How the results depend on the processing

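No paired analysis was possible because the arrays form 1 group. The 14 members detected on all arrays became 9 with a detection p of 0, 25 with detection on at least 1 array, 7 when only symbols with 1 probe were counted, and 26 with a signal above background on all arrays, a setting added after seeing the data and met by 26.3% of all symbols. Without a replicate they numbered 15 to 16. The 18 genes of the p53 list became 10 with a detection p of 0, 37 with detection on at least 1 array, and 7 with 1 probe, and 18 to 23 without a replicate. The 22 genes of the machinery list became 14 with a detection p of 0 and 14 with 1 probe, and 22 to 23 without a replicate. These settings ask for more or fewer arrays, probes, or controls by construction.

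The 24 members called by limma numbered 21 to 26 over other normalizations, background levels, and filters, and 17 to 27 without a replicate. Of 212 levels of single members under these alternatives, 203 kept their call, 9 lost it, and 0 changed sign. The background from a detection p under 0.05 is lower on every array, so that setting could hardly lose a call. A quantile step makes the arrays alike, so neither could those settings. *Bcl2l2*, *Bnip2*, *Casp9*, and *Diablo*, detected on no array, have no level under the filter for detection on at least 1 array. All 9 losses came with a replicate left out, and they belong to 7 members. Among them, without replicate 2, the level was 0.88 for *Bad*, 0.48 for *Bid*, 0.25 for *Birc1cl*, 0.25 for *Bnip1*, 0.37 for *Casp8*, and 0.47 for *Casp9*, and without replicate 1 it was 0.28 for *Bnip1* and 0.38 for *Casp8*. The lowest limma adjusted p among these was 0.0522, with fewer arrays left. The 17 is the count without replicate 2. The median SD of the detected members was 0.083 after quantile normalization, against 0.109 for all detected symbols, and 0.126 to 0.344 without a replicate, 0.126 without replicate 3. Of the 14 detected members, 5 were lowest on replicate 3 after quantile normalization, and 5 after normexp with quantile normalization, which remove the general dimness of that array. Signals near background limit what can be called, and a gene below it may still be expressed.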
